A study of Homo sapiens with 10 samples.

Results

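The main effect of 12 Gy of ionising radiation was measured in all 10 of the 10 RNA sequencing libraries of the series, by setting the 6 irradiated libraries against the 4 non-irradiated ones with the pretreatment as an additive term. All libraries came from HaCaT cells, a line of human keratinocytes that became immortal spontaneously. The line is given in the labels as wild type in genotype and mucosa in tissue. Cells were given vehicle or LBP, the Lycium barbarum polysaccharide-glycoprotein preparation, for 24 h, and RNA was taken 3 h after the 12 Gy exposure. There were 2 vehicle and 2 LBP libraries without radiation, and 3 irradiated vehicle and 3 irradiated LBP libraries. All groups shared the cell line and the length of pretreatment, and only the irradiated groups received a dose. No such time is given for the non-irradiated libraries, so a difference in harvest time or handling cannot be told apart from the dose. The labels number the libraries as repeats of the experiment and do not say whether each was a culture of its own, so p-values here reflect only the spread between these libraries, which may be technical. Depth ran from 31830506 counts (irradiated LBP replicate 2) to 62986831 counts (vehicle replicate 2). Of 22003 features in the count table, 14799 passed the filter on low counts and were tested. Levels are given as CPM, the counts of a gene per library total on a common scale with normalisation by the trimmed mean of M values, and changes as log2 fold changes ± SE, irradiated minus non-irradiated. A gene is called when edgeR's quasi-likelihood test gives a Benjamini-Hochberg adjusted p under 0.05 over all 14799 genes.

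The markers of basal keratinocytes were all present. KRT14 lay between 2902 and 4111 CPM and TP63 between 196.7 and 285 CPM, and the summed level of the 16 markers ran from 14320 to 16080 CPM without and from 13860 to 16410 CPM with radiation. Simple and mucosal epithelial markers were also high, from 7536 to 8719 CPM without and from 6733 to 8624 CPM with radiation over 11 genes, mainly through KRT7, KRT8, KRT18 and KRT19. For other cell types the sums stayed low. The 9 fibroblast markers summed to at most 7.46 CPM and the 10 leukocyte markers to at most 20.9 CPM, with DCN, CD3D and MS4A1 at 0 counts in all 10 libraries. The 6 endothelial markers summed to at most 3.61 CPM, with PECAM1, TEK and EMCN at 0, and the 6 melanocyte markers to at most 9.65 CPM, with TYR at 0.

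Double-strand breaks made by ionising radiation are sensed by the kinases ATM and ATR, which restrain cyclin-dependent kinases and hold cells in G2, before mitosis. Genes for mitosis are normally switched on late in the cell cycle by the MuvB complex together with B-MYB and FOXM1, often through a short promoter element called the cell cycle genes homology region (CHR), and in resting cells the DREAM complex represses them through the same element.

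At 3 h, mitotic genes fell. Of the 14799 genes tested, 83 (0.561%) were called, of which 72 (0.487%) were lower and 11 (0.0743%) higher in the irradiated libraries. Of the 72, 60 belonged to 4 lists of G2 and mitosis genes that hold 104 tested genes. The called lower genes had a median log2 fold change of -0.54 and the called higher genes one of 0.55, while the median over all tested genes was 7.08e-05. Only 7 called features changed by at least 2-fold: PIF1, AURKA, PSRC1, CCNF and FAM83D, plus 2 features with counts close to or at 0 in most libraries that are described further on. Without any adjustment, 1548 genes (10.5%) had a p under 0.05, 815 of them higher (5.51%) and 733 lower (4.95%). Because each library is a bulk extract, fewer cells in G2 and mitosis and less of these RNAs per cell cannot be told apart.

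**Figure D1:**
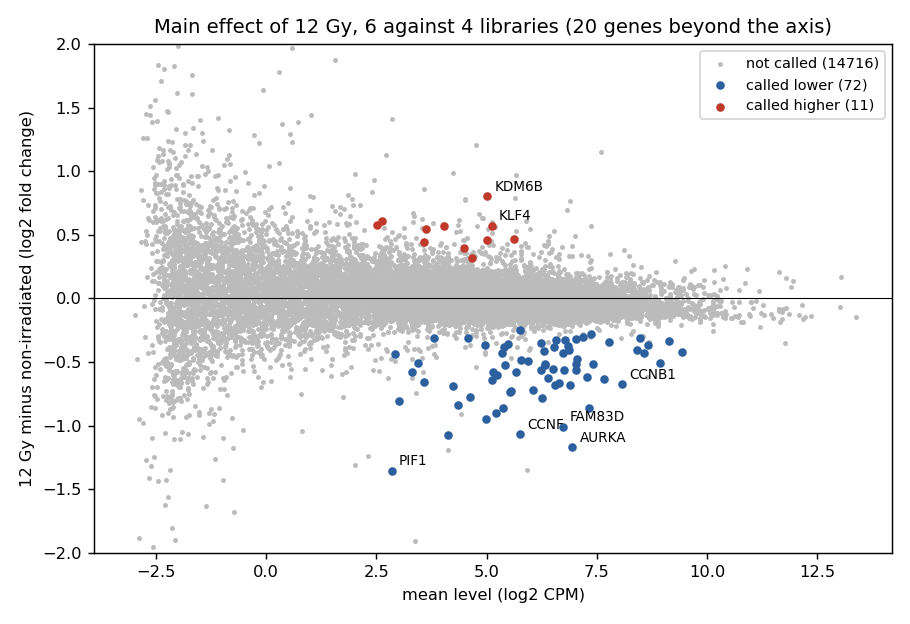
Log2 fold change of the main effect of 12 Gy (vertical axis) against mean level in log2 CPM (horizontal axis) for the tested genes, 1 point a gene, with the 72 called lower genes in blue and the 11 called higher genes in red. The called genes lie mostly below 0, and 20 genes, of which 2 are called, lie beyond the vertical limits of 2 log2 units.

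The number of higher genes depended more on the test than the number of lower genes. DESeq2, which gave an adjusted p for 11350 genes, called 118 lower (1.04%) and 74 higher (0.652%), so the share of called genes that were higher was 38.5% in place of 13.3%. It shared 81 of the 83 called genes. Leaving out vehicle replicate 2 reduced the calls to 55, and leaving out irradiated LBP replicate 2, the library of lowest depth, raised them to 132, of which 54 were higher. The count of higher genes also moved by over 1.5 times without irradiated LBP replicate 3 (18), without vehicle replicate 1 (6) or 2 (5), without irradiated vehicle replicate 1 (6), 2 (4) or 3 (7) and without LBP replicate 2 (3). For 61 of the 72 lower and 10 of the 11 higher genes, the 6 irradiated libraries did not overlap the 4 non-irradiated ones. Over all tested genes this held for 309 (2.09%), 1.21% lower and 0.878% higher. Taken within each pretreatment separately, 70 of the 72 and all 11 did not overlap, against 5.02% of all tested genes, 2.89% lower and 2.14% higher. The genes were called by a test on these same libraries, so their separation is no further evidence for the calls.

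AURKA, the kinase that matures centrosomes and helps build the spindle, gave the smallest adjusted p together with CCNF. AURKA (chromosome 20, 56369389 to 56392337 on GRCh38, minus strand, protein coding) stood at 206 and 200 CPM in the vehicle libraries and 92.3, 83.9 and 81.9 CPM in the irradiated vehicle libraries. After LBP it stood at 152 and 182 CPM without and 70.2, 81.9 and 82.5 CPM with radiation. The highest irradiated library was thus far below the lowest non-irradiated one, and the groups did not overlap. The log2 fold change was -1.17 ± 0.07 (adjusted p = 1.69e-06, edgeR's quasi-likelihood test), a level 0.445 times that of the non-irradiated libraries.

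CCNF encodes cyclin F, the substrate receptor of a ubiquitin ligase that acts in G2. It lies on chromosome 16 (2429394 to 2458854, plus strand) and overlaps 1 other gene on its strand and 3 on the other strand. Its level was 83.8 and 81.1 CPM with vehicle and 38.4, 36.8 and 39.8 CPM after irradiation, and with LBP 71.5 and 78.5 CPM and 34.8, 40.99 and 34.8 CPM after irradiation. All 6 irradiated libraries lay close to each other and at about the same level in both pretreatments. The log2 fold change was -1.07 ± 0.06 (adjusted p = 1.69e-06, edgeR).

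PIF1, a DNA helicase that acts at G-quadruplexes and telomeres, had the most negative log2 fold change among genes that the naming rule covers. PIF1 (chromosome 15, 64815632 to 64825668, minus strand) stood at 12.8 and 13.3 CPM with vehicle, 3.96, 3.66 and 3.76 CPM after irradiation, 8.95 and 9.998 CPM with LBP and 4.06, 4.75 and 6.39 CPM with LBP and irradiation. Groups did not overlap, but the estimated fall was larger with vehicle, where the irradiated libraries were lowest. The main effect was -1.36 ± 0.17 (adjusted p = 0.000911, edgeR), made up of -1.78 ± 0.16 with vehicle and -0.90 ± 0.16 with LBP, and the difference between these had an unadjusted p of 0.00258 and an adjusted p of 0.573 in edgeR.

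FAM83D, which recruits casein kinase 1 to the spindle, and PSRC1, a microtubule-binding protein, also fell by around 2-fold. FAM83D (chromosome 20, 38926312 to 38953106, plus strand) went from 166 and 153 to 78, 77.1 and 79.1 CPM with vehicle and from 133 and 156 to 66.9, 81.7 and 69.8 CPM with LBP. PSRC1 (chromosome 1, 109279556 to 109283186, minus strand) went from 29.7 and 26.4 to 12.4, 10.7 and 12.5 CPM with vehicle and from 21.98 and 24.3 to 9.27, 11.2 and 16.7 CPM with LBP. Neither gene had an irradiated library at or above any non-irradiated one, although irradiated LBP replicate 3 was the highest irradiated library for PSRC1. The log2 fold changes were -1.01 ± 0.06 (adjusted p = 3.99e-06) and -1.07 ± 0.14 (adjusted p = 0.00121) in edgeR.

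**Figure D2:**
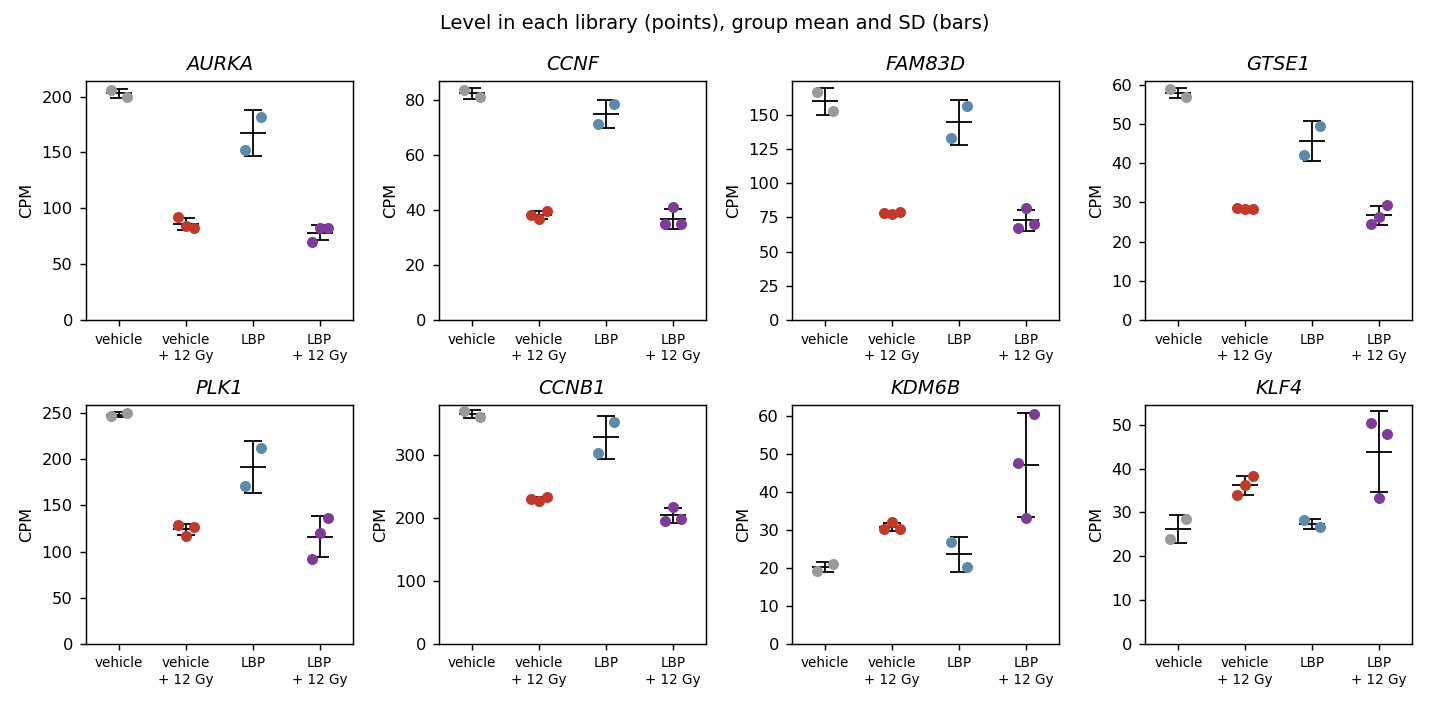
Level in CPM (vertical axis, from 0) of 8 genes in each of the 10 libraries, grouped by pretreatment and dose, with points for libraries and bars for the group mean and SD (n = 2 without and n = 3 with 12 Gy). For AURKA, CCNF, FAM83D, GTSE1, PLK1 and CCNB1 every irradiated library lies below every non-irradiated one, and for KDM6B and KLF4 every irradiated library lies above.

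Promoter sequences of the lower genes often held the same short element. RefSeq windows from 250 bases before to 50 bases after the annotated start (GRCh38.p14) were found for 59 of the 72 lower genes, and the CHR letters TTTGAA were present on either strand in 41 of them (69.5%), against 1038 of the 10709 windows of tested genes (9.69%) and 0 of 6 windows of called higher genes. AURKA and FAM83D had no window in this table. The next 8 lines give 30 bases around the CHR (capitals) of lower genes, because these letters were more frequent in this group than over all promoters, each 5′ to 3′ on the gene's own strand.
PIF1: ctgcctctagcaTTTGAAaaatttctagtt
CCNF: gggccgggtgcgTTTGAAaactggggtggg
GTSE1: ctcggagcccttTTCAAAccgaccaatcgg
PLK1: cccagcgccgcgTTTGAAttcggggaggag
CENPA: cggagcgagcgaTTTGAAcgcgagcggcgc
CDCA8: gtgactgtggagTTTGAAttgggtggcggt
BUB1B: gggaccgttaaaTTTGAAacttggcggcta
CCNB2: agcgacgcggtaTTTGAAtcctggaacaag
These stretches are chr15:64825650-64825679 (minus), chr16:2429350-2429379 (plus), chr22:46296832-46296861 (plus), chr16:23678848-23678877 (plus), chr2:26786026-26786055 (plus), chr1:37692481-37692510 (plus), chr15:40161034-40161063 (plus) and chr15:59105105-59105134 (plus). The element begins 20 bases before the RefSeq start in PIF1, 85 in CCNF, 26 in GTSE1, 29 in PLK1, 18 in CENPA, 23 in CDCA8, 23 in BUB1B and 29 in CCNB2. In GTSE1 the letters read TTCAAA, which is the same element on the opposite strand.

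The CCAAT box, the binding site of NF-Y and a frequent partner of the CHR, was in 43 of the 59 lower windows (72.9%) and in 36.7% of all windows. Both elements occurred together in 34 windows (57.6%), against 4.16% of all. They also occurred together in 47.7% of the 88 windows of tested G2 and mitosis list members. Among the 38 windows of list members that were not called, 28.9% held both, 60.5% held the CCAAT box and 19 held TTTGAA. Of the 9 windows of called lower genes outside the lists, 3 held both. The elements were thus frequent in the G2 and mitosis lists, also among members not called. The promoter of CKS2, a small subunit of cyclin-dependent kinase complexes, shows the arrangement in the 120 bases before its start (chr9:89311075-89311194, plus strand), with 2 CCAAT boxes, the first of them on the opposite strand, and the CHR in capitals.
CKS2: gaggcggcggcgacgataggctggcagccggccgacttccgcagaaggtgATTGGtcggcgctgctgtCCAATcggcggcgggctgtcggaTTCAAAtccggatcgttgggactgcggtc
CKS2 itself fell from 106 and 104 to 63.8, 69.3 and 73.03 CPM with vehicle and from 101 and 117 to 69.6, 61.4 and 78.8 CPM with LBP, with no overlap (log2 fold change -0.63 ± 0.07, adjusted p = 0.000547, edgeR).

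Other motifs were rarer. The letters TTTAAA, a second form of the CHR that was looked up after the shares of the first were seen, were in 19 of the 59 windows (32.2%) against 7.68%. The E2F letters TTTCCCGC were in 1 (1.69%) and TTTGGCGC in 2 (3.39%), against 2.62% and 1.09%, and the cyclic AMP response element TGACGTCA was in 5 (8.47%) against 3.18%. The AP-1 letters TGACTCA were in 0 of the 59 windows and in 3.19% of all. All motifs were searched on both strands, and none of the letters searched contains another. A match is a description of the sequence and does not show binding.

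By position, the CHR of the lower genes was concentrated just before the RefSeq start. In the printed promoters the GENCODE v29 gene start lies further upstream, by 21 (PIF1) to 21767 (CENPA) bases, except in CKS2. The distance therefore depends on the start used. The CHR began within the last 100 bases before the start in 29 of 59 windows (49.2%), against 2.64% of all windows. For G2 and mitosis list members that were not called, this held in 7 of 38 windows (18.4%). Among the tested members of the 4 G2 and mitosis lists, the 57 whose window holds TTTGAA had a median log2 fold change of -0.38, and 38 of them (66.7%) were called lower. The 31 whose window lacks it had a median of -0.27, and 12 (38.7%) were called lower. Outside the lists, 981 genes hold these letters, with a median of -0.02 and 3 called lower (0.306%). For comparison, 9671 tested genes have a window that lacks the letters, list members included. Of these, 18 were called lower (0.186%), and 12 of the 18 are the list members just given. Over all 1038 genes that hold the letters, 41 were called lower (3.95%).

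**Figure D3:**
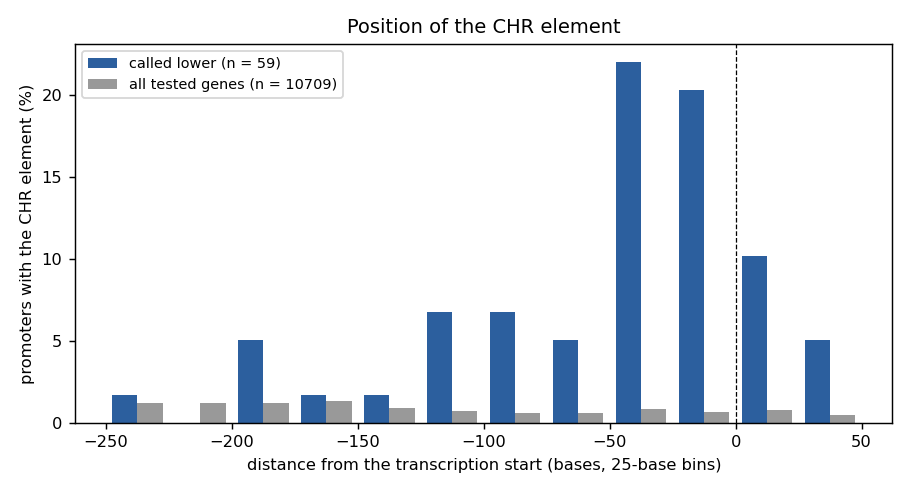
Share of promoter windows in which the CHR letters TTTGAA occur (vertical axis, percent) by distance from the RefSeq start in 25-base bins (horizontal axis, bases), for the 59 lower genes with a window and for the 10709 tested genes with one. The lower genes peak at 22.0% between 50 and 25 bases before the start and at 20.3% in the last 25 bases, where all tested genes are at 0.859% and 0.644%.

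Kinases and phosphatases of mitotic entry and the spindle checkpoint divided into few strong falls and many small ones. Of 17 tested, 5 were called lower (AURKA, PLK1, TTK, BUB1B and BUB1) and none higher, with a median log2 fold change of -0.21. PLK1, the kinase that drives mitotic entry, went from 247 and 250.5 to 129, 117 and 127 CPM with vehicle and from 171 and 212 to 92.1, 120.4 and 136 CPM with LBP (-0.86 ± 0.10, adjusted p = 0.000588, edgeR). BORA, which activates the kinase AURKA and thereby PLK1, fell too, by 0.77 on the log2 scale (adjusted p = 0.000704, edgeR), and lay at 30.1 to 34.04 CPM without and 16.2 to 24.01 CPM with radiation. BORA overlaps DIS3 on the other strand, as PLK1 overlaps ERN2 and KIF18A overlaps METTL15, and the strand setting of the counting is not given. TTK, the checkpoint kinase MPS1, had -0.52 ± 0.06 (adjusted p = 0.000547, edgeR), and its 6 irradiated libraries (61.5 to 77.2 CPM) lay below the 4 others (89.6 to 111 CPM).

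The checkpoint kinases BUB1B and BUB1 had smaller falls, of 0.52 and 0.40 on the log2 scale (adjusted p = 0.000704 and 0.0018, edgeR). CDC25C, the phosphatase that activates CDK1, did not pass: its level was 10.6 to 13.4 CPM without and 8.47 to 10.6 CPM with radiation, a log2 fold change of -0.30 ± 0.08 with adjusted p = 0.176 (edgeR). CDK1 itself, named after its values were seen, had -0.21 ± 0.06 (adjusted p = 0.271, edgeR). A p that misses the threshold does not show that these levels were equal.

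Among cyclins and components of the machinery that degrades them, 8 of 14 tested genes were called lower and none higher, with a median of -0.30. CCNB1, cyclin B1, the partner of CDK1 in mitosis, had 369.8 and 361 CPM with vehicle, 230.2, 228 and 233 CPM after irradiation, 304 and 353 CPM with LBP and 196, 218 and 199 CPM after LBP and irradiation. No irradiated library reached any non-irradiated one, and the falls in the 2 pretreatments differed by less than their SE (-0.67 ± 0.08 with vehicle, -0.69 ± 0.08 with LBP). The main effect was -0.68 ± 0.05 (adjusted p = 1.94e-05, edgeR). UBE2C, the ubiquitin-conjugating enzyme of the anaphase-promoting complex, fell by 0.52 (adjusted p = 0.000547, edgeR), and lay at 197 to 225 CPM without and 139 to 164 CPM with radiation.

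CCNB2 and CCNA2, cyclins B2 and A2, fell less, by 0.30 and 0.33 on the log2 scale (adjusted p = 0.00849 and 0.00849, edgeR). For CCNA2, which is made from S phase on, the irradiated libraries lay at 100.4, 103, 104, 88.7, 102 and 98.6 CPM (vehicle first, then LBP) and the others at 138, 130.2, 113 and 119 CPM. The gap between the groups was narrow for both genes, and their calls were lost in 4 and 5 of 25 alternative settings, against 0 for AURKA, CCNF and FAM83D.

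Kinesins and other spindle proteins held the highest share of calls: 29 of 37 tested genes were lower, none higher, and the median was -0.43. KIF18A, a kinesin that shortens kinetochore microtubules, had 43.98 and 50.6 CPM with vehicle and 24.98, 24.9 and 19.2 CPM after irradiation, and 42.3 and 40.04 CPM and 22.2, 22.5 and 24.03 CPM with LBP. The irradiated levels were about the same in both pretreatments and did not overlap the others (-0.95 ± 0.08, adjusted p = 5.39e-05, edgeR). GTSE1, a microtubule protein active in G2 and mitosis, had 58.8 and 56.9 CPM with vehicle, 28.6, 28.4 and 28.3 CPM after irradiation, 42.04 and 49.3 CPM with LBP and 24.6, 26.2 and 29.2 CPM after both. It fell by 0.90 ± 0.07 (adjusted p = 1.94e-05, edgeR).

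Other spindle genes followed with smaller sizes. CKAP2, a microtubule stabiliser, lay at 109 to 129.8 CPM without and 69.9 to 79.9 CPM with radiation (-0.68 ± 0.05, adjusted p = 1.94e-05, edgeR). KIF23, a motor of the central spindle in cytokinesis, lay at 239.5 to 269.5 CPM without and 153 to 181 CPM with radiation (-0.63 ± 0.06, adjusted p = 5.39e-05, edgeR). DEPDC1 had -0.73 ± 0.08 (adjusted p = 0.000531, edgeR), with 55.9 to 65.8 CPM without and 32.5 to 44.1 CPM with radiation. None of these 3 had overlapping groups.

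Of 36 tested genes of the kinetochore and of chromosome structure, 18 were called lower and none higher, with a median of -0.34. Besides PIF1, genes that mark the centromere were among the largest falls. CENPA, the histone H3 variant that marks centromeres, had 28.2 and 26.4 CPM with vehicle, 16.6, 15.3 and 14.8 CPM after irradiation, 26.9 and 28.9 CPM with LBP and 15.2, 14.6 and 15.9 CPM after both. Its chaperone HJURP had 105 and 96.6, 56.4, 55.1 and 54.8, 95.05 and 112 and 61.3, 67.1 and 63.97 CPM in the same order of groups. In both genes the irradiated libraries lay below all others and within a narrow range, with -0.84 ± 0.06 (adjusted p = 1.42e-05) and -0.78 ± 0.06 (adjusted p = 1.94e-05) in edgeR. CENPA overlaps SLC35F6 on the same strand, so its counts may include reads of that gene.

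CENPE, the kinetochore motor, had 34.3, 38.4, 21.1, 30.1, 30.6 and 33.7 CPM in the irradiated libraries (vehicle first) and 60.7, 62.1, 55.1 and 50.7 CPM in the others, with irradiated vehicle replicate 3 the lowest. Its log2 fold change was -0.86 ± 0.13 (adjusted p = 0.00362, edgeR). CDCA8 (borealin) of the chromosomal passenger complex had -0.72 ± 0.07 (adjusted p = 7.85e-05), and CDCA2, which brings protein phosphatase 1 to chromatin, had -0.74 ± 0.06 (adjusted p = 5.39e-05) in edgeR. G2E3, a ubiquitin ligase with peak expression in G2, had -0.53 ± 0.06 (adjusted p = 0.000588, edgeR). In each of these genes the groups did not overlap.

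Over all 4 lists, 60 of 104 tested members were called lower and none higher, 100 of 104 had a negative log2 fold change, and the median was -0.34. Counted by libraries that do not overlap, 58 members were lower in all 6 irradiated libraries, against 179 of all tested genes (1.21%). Their summed level ran from 12570 to 14300 CPM without and from 9771 to 10660 CPM with radiation. DESeq2 called 69 of them lower. When the libraries were left out 1 at a time, the number called ran from 43 to 58.

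Outside the lists, 12 features were called lower, and they are named after their values were seen. Of these, HYLS1 and STIL are centriole proteins, TUBD1 is delta tubulin, GPSM2 orients the spindle, KPNA2 is a nuclear import receptor and ARHGAP11A acts in cytokinesis. HYLS1 had 13.7 and 12.5 CPM with vehicle, 7.91, 7.24 and 6.46 CPM after irradiation, 7.86 and 9.11 CPM with LBP and 4.56, 6.23 and 4.38 CPM after both, so that groups overlapped across but not within pretreatments (-0.81 ± 0.11, adjusted p = 0.00178, edgeR). It overlaps PUS3 on the other strand. ARHGAP11A (-0.56 ± 0.05, adjusted p = 0.000142) and its shorter, partial copy ARHGAP11B (-0.51 ± 0.09, adjusted p = 0.0217, both edgeR) can share reads, and their separate values are uncertain.

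KPNA2 lay at 432 to 481 CPM without and 327 to 398 CPM with radiation and fell by 0.37 on the log2 scale (adjusted p = 0.00304, edgeR). TNFAIP8L1 had -0.66 ± 0.11 and TRIM59 had -0.58 ± 0.08, and TRIM59 overlaps SMC4. The others, TUBD1, GPSM2, STIL and RSBN1, lay between -0.44 and -0.31. The last 2 features were on in some libraries only. AL355312.5, which overlaps other genes on its strand, had 427 and 386 counts in the LBP libraries, 4 and 4 with vehicle, 0, 2 and 3 after irradiation with vehicle and 4, 2 and 6 after irradiation with LBP. AC093525.2, within the TBC1D24 and ATP6V0C locus, had 23 and 166 counts in the vehicle libraries and 0 in the other 8. Neither pattern is shared by both pretreatments, although the additive model counts them as radiation effects.

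The 11 higher genes were fewer than the 72 lower ones, and their SE ran from 0.06 (ZNF672) to 0.15 (KDM6B). KDM6B, a histone H3 lysine demethylase (chromosome 17, 7839904 to 7854796, plus strand), had the highest change. It had 19.3 and 21.1 CPM with vehicle, 30.3, 32.1 and 30.2 CPM after irradiation, 26.9 and 20.3 CPM with LBP and 47.7, 33.1 and 60.7 CPM after both. All irradiated libraries exceeded all others, and irradiated LBP replicate 3 was highest (0.81 ± 0.15, adjusted p = 0.0217, edgeR).

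KLF4, a transcription factor of keratinocyte differentiation that is also an early response gene (chromosome 9, 107484852 to 107490482, minus strand), had 23.9 and 28.5 CPM with vehicle and 34.05, 36.2 and 38.4 CPM after irradiation. With LBP it had 28.3 and 26.6 CPM and, after irradiation, 50.5, 33.3 and 47.8 CPM. Here too no library overlapped, and the log2 fold change was 0.57 ± 0.11 (adjusted p = 0.0277, edgeR). EPOP, a subunit of Polycomb repressive complex PRC2 (chromosome 17, 38671703 to 38675421, minus strand), had 10.5 and 10.1 CPM and 15.8, 14.4 and 15.4 CPM with vehicle and 8.603 and 9.46 CPM and 11.6, 14.4 and 13.3 CPM with LBP, without and with radiation. This was the smallest adjusted p of the higher genes (0.55 ± 0.08, adjusted p = 0.00246, edgeR).

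The remaining higher genes changed by less than KDM6B. NLGN2, a synaptic adhesion protein, had 0.61 ± 0.11 (adjusted p = 0.0204), NKX2-8, a homeobox factor, 0.58 ± 0.11 (adjusted p = 0.0268) and LONRF1 0.57 ± 0.10 (adjusted p = 0.0214) in edgeR. THBD, the thrombin receptor thrombomodulin, had 0.47 ± 0.09, HIVEP1, a zinc finger protein that binds NF-kB sites, 0.46 ± 0.09, and GCH1, the first enzyme of tetrahydrobiopterin synthesis, 0.44 ± 0.08 (adjusted p = 0.0272, 0.0277 and 0.0165, edgeR). The zinc finger genes ZNF672 and ZNF367 had 0.39 ± 0.06 and 0.32 ± 0.06 (adjusted p = 0.00621 and 0.0363, edgeR). Only THBD had overlapping groups across pretreatments, and none did within a pretreatment. Of 25 alternative settings, EPOP lost its call in 1 and ZNF672 in 2, while the other 9 lost theirs in 7 to 12.

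The 2 pretreatments share no library, but both effects were tested against a spread estimated over all 10 libraries, so their calls are not independent. With vehicle, 65 genes were called (0.439%), 60 of them lower (0.405%), and with LBP 21 genes (0.142%), 19 of them lower (0.128%). Of the 60 that were lower with vehicle, 57 were also lower on average with LBP, where 49.5% of all tested genes were lower, and their median log2 fold change was -0.68 with vehicle and -0.47 with LBP. Of the 19 lower with LBP, 18 were lower with vehicle, with medians of -0.69 and -0.81. In all, 18 genes were called in both, which is 27.7% of those called with vehicle and 85.7% of those called with LBP. These counts moved with the libraries used: with 1 of the vehicle or irradiated vehicle libraries left out, 25 to 35 genes were called with vehicle. Fitted on their own libraries alone, vehicle gave 109 calls and LBP 10. With LBP the calls numbered 8 without LBP replicate 2, 33 without irradiated LBP replicate 1 and 51 without irradiated LBP replicate 2.

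A difference between the pretreatments in the size of the falls did not pass the test. Among the 72 lower genes of the main effect the median was -0.62 with vehicle and -0.46 with LBP, and 58 of the 72 fell more with vehicle. The interaction of dose and pretreatment had an unadjusted p under 0.05 for 12 of the 72, against 8.2% of all tested genes, and an adjusted p under 0.05 for none. Over all genes edgeR called 2 interactions (0.0135%) and DESeq2 16. The 2 were features of low level that were at 0 in 1 or 2 groups. PDE8B, a cyclic AMP phosphodiesterase, had 37 and 55 counts with vehicle, 0 and 0 with LBP, 37, 60 and 47 after irradiation with vehicle and 61, 45 and 65 after irradiation with LBP (adjusted p = 0.00441, edgeR). AC008982.1 had 0 and 0 counts with vehicle, 21 and 18 with LBP, 22, 34 and 33 after irradiation with vehicle and 0 in all 3 irradiated LBP libraries (adjusted p = 0.00611, edgeR). The call count was 0 without LBP replicate 2, 4 without irradiated vehicle replicate 2 and 5 without irradiated LBP replicate 1.

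**Figure D4:**
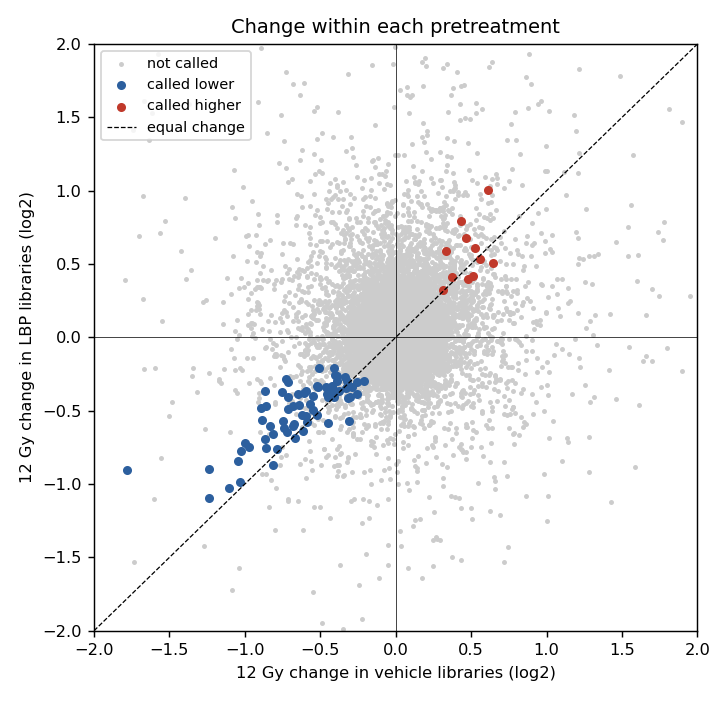
Log2 fold change with 12 Gy in the LBP libraries (vertical axis) against that in the vehicle libraries (horizontal axis), 1 point a gene, with the genes called in the main effect in colour and a dashed line where both are equal. Most called lower genes lie in the lower left, 58 of 72 of them with a larger fall with vehicle, and the 11 called higher genes lie in the upper right.

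Transcription regulators of the cell cycle and S phase genes had no call in edgeR. At an unadjusted p under 0.05 in edgeR, 5.51% of all tested genes were higher and 4.95% lower, the background for this and each later list. Of 17 tested transcription regulators of the cycle, such as E2F, FOXM1 and MuvB genes, none was called by edgeR or DESeq2, with 4 at an unadjusted p under 0.05, all higher, and a median of 0.06. LIN54, the MuvB subunit that binds the CHR, had 23.02, 23.7, 23, 24.6, 24.4 and 23.7 CPM in the irradiated and 22.2, 19.3, 22.8 and 18.8 CPM in the other libraries (0.19 ± 0.07, adjusted p = 0.361, edgeR). The groups of LIN54 were separate but close. Of 43 replication and S phase genes, edgeR called none, with 6 higher and 2 lower at an unadjusted p under 0.05, and DESeq2 called 1 higher, and the median was -0.01.

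CCNE1, cyclin E1 of the G1 to S transition, had 13.2, 13.9, 12.3 and 15.2 CPM without and 18.4, 18.3, 18.9, 18.3, 17.8 and 13.9 CPM with radiation (vehicle first). It was higher in 5 of the 6 irradiated libraries than in all 4 others, while irradiated LBP replicate 3 was within the non-irradiated range (0.36 ± 0.09, adjusted p = 0.153 in edgeR and 0.0152 in DESeq2). CCNE2 had 0.78 ± 0.19 with vehicle and 0.10 ± 0.18 with LBP (main effect 0.43 ± 0.16, adjusted p = 0.377, edgeR). Replication-dependent histones, which are made in S phase and mostly lack a poly(A) tail, had 32 of 55 genes tested, none called, 10 lower at an unadjusted p under 0.05 and 2 lower in DESeq2, with a median of -0.31. H2BC12 had 18.8, 18.1, 19.6 and 20.8 CPM without and 16.2, 14.98, 16.7, 15.8, 17.04 and 14.8 CPM with radiation, with no overlap (-0.28 ± 0.07, adjusted p = 0.13 in edgeR and 0.0224 in DESeq2). Whether poly(A) RNA was selected is not given in the sources used here.

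Among genes of growth arrest and stress, CDKN1A, MDM2, GADD45A and BTG2 did not pass the test. Of 25 alternative settings, GADD45A was called in 2, CDKN1A in 1 and MDM2 and BTG2 in 0. CDKN1A, the p21 inhibitor of cyclin-dependent kinases, had 108 and 128 CPM with vehicle, 136, 139.9 and 159 CPM after irradiation, 159.6 and 147 CPM with LBP and 225, 126 and 244 CPM after both. The groups overlapped across pretreatments and within LBP, but not within vehicle. Of the 3 irradiated LBP libraries, 2 were well above the rest (0.34 ± 0.14, adjusted p = 0.443, edgeR). MDM2, a ubiquitin ligase, had 41.6, 40.8, 40.8 and 35.2 CPM without and 40.9, 41.6, 39.8, 43.7, 43.3 and 45.2 CPM with radiation, and its libraries overlapped (0.10 ± 0.06, adjusted p = 0.604, edgeR).

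GADD45A, a growth arrest gene, had 54.6 and 73.3 CPM with vehicle and 91.2, 102 and 99.1 CPM after irradiation. With LBP it had 84.5 and 81.8 CPM and, after irradiation, 124, 71.2 and 145 CPM. Its libraries overlapped across pretreatments and within LBP, but not within vehicle (0.53 ± 0.15, adjusted p = 0.264, edgeR). The death receptor gene FAS (0.13 ± 0.09) and the stress genes SESN1 (0.14 ± 0.10) and PLK3 (0.18 ± 0.12) differed by less than 2 SE, and BTG2, an antiproliferative gene, had 0.30 ± 0.16 (adjusted p = 0.541, edgeR). GDF15, a stress cytokine, and BTG2 had their highest level in irradiated LBP replicate 3, which for GDF15 was 5.67 CPM against 0.663, 0.825 and 0.624 CPM in the irradiated vehicle libraries.

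Genes of double-strand break repair (46 tested) had no call in edgeR, 1 lower in DESeq2, 2 higher and 5 lower at an unadjusted p under 0.05, and a median of -0.04. H2AX, whose protein is phosphorylated at breaks, had 152, 164, 159 and 179.9 CPM without and 138, 128, 146, 132, 137 and 125 CPM with radiation. All irradiated libraries were lower (-0.28 ± 0.06, adjusted p = 0.068 in edgeR and 0.00216 in DESeq2). Of 25 apoptosis regulators none was called by edgeR or DESeq2, 1 was higher and 1 lower at an unadjusted p under 0.05, and the median was 0.02. BCL2L11, the proapoptotic protein BIM, had 22.3, 20.4, 20.7 and 19.2 CPM without and 23.04, 24.5, 22.9, 26.2, 24.8 and 33.05 CPM with radiation, separate groups of which irradiated LBP replicate 3 was highest (0.31 ± 0.09, adjusted p = 0.277, edgeR).

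Immediate early genes, which are induced within minutes to hours of a signal without new protein synthesis, were called in the main effect only for KLF4. Of 35 tested, 34 had a positive log2 fold change, and the median was 0.40. At an unadjusted p under 0.05 in edgeR, 17 were higher and none lower, against 5.51% and 4.95% of all tested genes. DESeq2 called 6 higher. DUSP1, a phosphatase of MAP kinases, had 4.55, 4.98, 4.898 and 5.15 CPM without and 6.07, 6.22, 6.79, 7.86, 6.35 and 10.1 CPM with radiation. These groups did not overlap, but edgeR gave an adjusted p of 0.0993 (0.55 ± 0.12) and DESeq2 one of 0.00375. JUND, an AP-1 subunit, had 16.4 and 19.8 CPM with vehicle and 37.4, 36.1 and 36.5 CPM after irradiation, and 32.1 and 23.7 CPM and 38.9, 24.1 and 38.2 CPM with LBP.

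JUND was thus about alike in 5 irradiated libraries and low in irradiated LBP replicate 2 (0.63 ± 0.16, adjusted p = 0.176, edgeR). Within vehicle edgeR called it higher, at 1.01 ± 0.19 (adjusted p = 0.0424), while with LBP it had 0.28 ± 0.18 (adjusted p = 0.521). The difference between the pretreatments in JUND had an unadjusted p of 0.0156 and an adjusted p of 0.596 in edgeR. FOSB, another AP-1 subunit, had 2.97, 4.06, 4.93, 14, 6.195 and 17.8 CPM with (vehicle first) and 1.605, 2.05, 7.66 and 3.96 CPM without radiation. Its libraries overlapped across pretreatments and within LBP, but not within vehicle (1.12 ± 0.27, adjusted p = 0.136 in edgeR and 0.0499 in DESeq2). FOS had 0.66 ± 0.34 and the stress factor ATF3 0.77 ± 0.37, with adjusted p = 0.521 and 0.496 in edgeR. Both were highest in irradiated LBP replicate 3. Without that library the median of the immediate early genes was 0.28 with 2 called higher, and without irradiated LBP replicate 2 it was 0.51 with 9 called higher, and what sets these libraries apart was not tested. With the replicate number as a block the median was 0.24 and none was called.

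For targets and feedback regulators of the ERK pathway, 0 of 22 were called in edgeR and 1 higher in DESeq2, 11 were higher and none lower at an unadjusted p under 0.05, and the median was 0.22. SPRY2, a feedback inhibitor, had 5.79 to 8.52 CPM without and 8.07 to 11.6 CPM with radiation (0.44 ± 0.12, adjusted p = 0.241 in edgeR and 0.0389 in DESeq2). Its libraries overlapped.

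Among NF-kB regulators and inflammatory cytokines, 29 of 30 tested genes had a positive log2 fold change, but none was called by edgeR or DESeq2. At an unadjusted p under 0.05, 8 were higher and none lower, with a median of 0.38. TNFAIP3, the NF-kB inhibitor A20, had 109 and 149.6 CPM with vehicle, 155, 235 and 214 CPM after irradiation, 138 and 117 CPM with LBP and 219, 122 and 198 CPM after both. All irradiated vehicle libraries exceeded the vehicle ones, while irradiated LBP replicate 2 lay within the LBP range (0.57 ± 0.16, adjusted p = 0.235, edgeR). The cytokine IL6 ranged over 5.68 to 9.09 CPM without and 7.03 to 28.7 CPM with radiation (0.65 ± 0.29) and the chemokine CXCL8 over 9.37 to 24.97 CPM and 9.43 to 39.8 CPM (0.78 ± 0.34).

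The top of the IL6 range was irradiated LBP replicate 3, which was also highest for PTGS2, the prostaglandin synthase COX-2, at 33.9 CPM, and for NFKBIA, the inhibitor IkB alpha, at 142 CPM. Without it the median of the NF-kB and cytokine list was 0.15 in place of 0.38, within vehicle alone it was 0.24, and with the replicate number as a block it was 0.12.

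**Figure D5:**
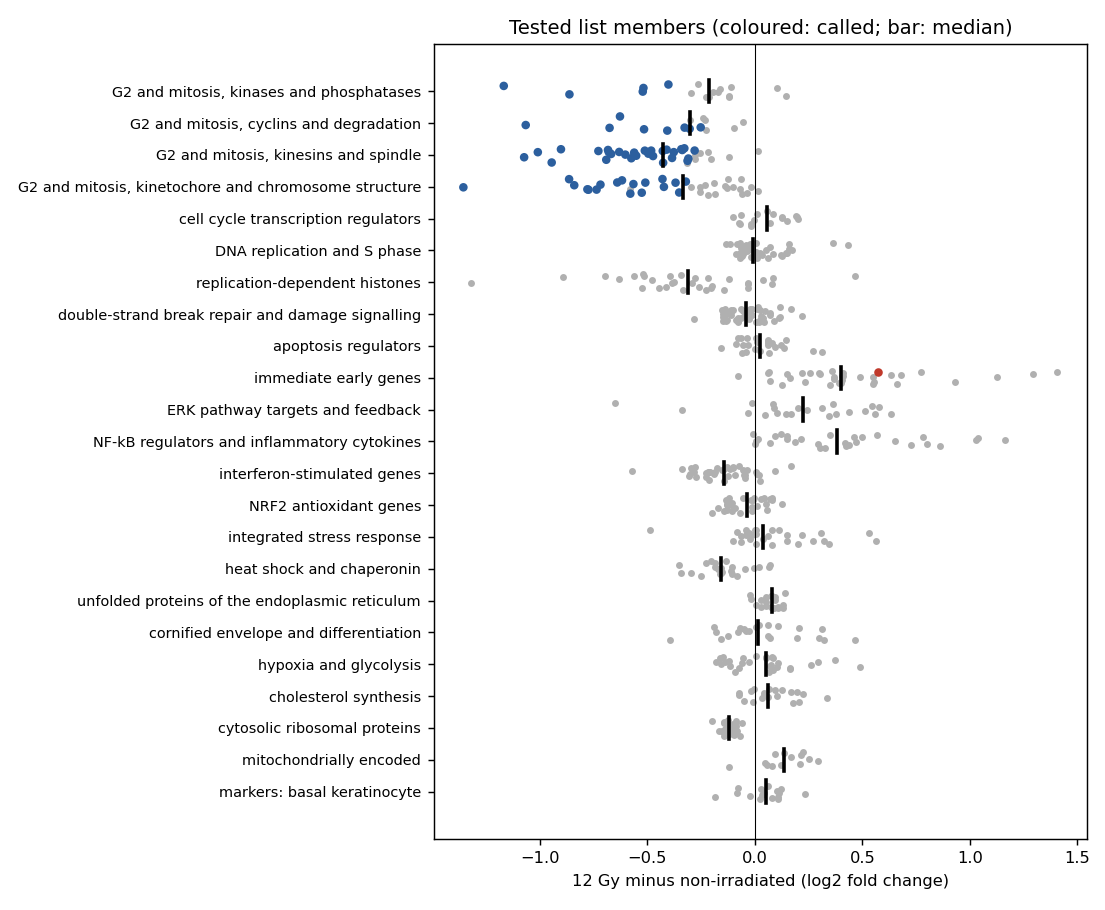
Log2 fold change of the main effect of 12 Gy (horizontal axis) for each tested member of 23 gene lists (rows), with called genes in blue (lower) or red (higher), others in grey and a black bar at the list's median. Blue points are confined to the 4 G2 and mitosis rows, the only red point is KLF4, and the immediate early and NF-kB rows lie mostly right of 0 with no other call.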

How the data were processed

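RNA sequencing of 10 HaCaT libraries was reanalysed from the table of counts and the table of FPKM as deposited by the authors. Per the submitters' processing notes, HISAT2 and GRCh38 were used. What counted the reads, on which strand and with which gene models, is not given in the sources used here. Members, lists and the naming rule were chosen with earlier results of these data known. Counts were kept by filterByExpr (minimum count 10), normalised by TMM (trimmed mean of M values) and fitted with edgeR 4.0.16 (glmQLFit, glmQLFTest, R 4.3.3) with dose and pretreatment as terms (7 residual degrees of freedom, prior 6.00). Effects within a pretreatment and the interaction came from a fit with 1 mean per group. DESeq2 1.42.0, limma 3.58.1 on log2(FPKM + 1) and log2(FPKM + 0.1), other scalings, filters and designs, and the omission of each library were alternatives. Lists are described by counts and medians, and no set test was run. One list and some single results are not reported here. Named are the 15 highest (11 exist) and 15 lowest called log2 fold changes with a mean log2 CPM of at least 1 and no overlap within a pretreatment, up to 6 members of each G2 and mitosis list and 4 of any other with the smallest p, and a fixed set of radiation and stress genes. Same-numbered libraries were not taken as pairs. Replicates differed beyond counting noise (chi-square per degree of freedom 10.7 to 36.8). Positions come from GENCODE v29 and promoters from RefSeq. The fit was tested on simulated data.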

Additional observations from a re-analysis of the deposited data

Results flagged for a closer look

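For each named gene, the most extreme library among the 6 irradiated and among the 4 non-irradiated ones was compared with the rest. Of 204 such groups, 18 had a library set apart by Dixon's 95% limit. For independent groups, each from 1 normal population, chance gives about 1 in 20, or 10.2. Here each group pools both pretreatments and the genes share libraries, so this number is only a rough guide. Irradiated LBP replicate 3 accounted for 10 of the 18. It was the highest irradiated library for ATF3 (82.0 CPM, next 25.9), GDF15 (5.67 CPM), FOS (10.5 CPM), IL6 (28.7 CPM), PTGS2 (33.9 CPM), NFKBIA (142 CPM), CEBPB, a stress and inflammation factor (101 CPM), BTG2 (86.8 CPM) and BCL2L11 (33.1 CPM), and the lowest for CCNE1 (13.9 CPM).

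The other 8 were spread over 6 libraries. CDCA2 was highest in irradiated LBP replicate 2 (41.3 CPM) among irradiated and in vehicle replicate 1 (67.6 CPM) among non-irradiated libraries. JUND was lowest in irradiated LBP replicate 2 (24.1 CPM). UBE2C (164 CPM) and the histone gene H4C9 (3.36 CPM) were highest in irradiated vehicle replicate 3, and CCNA2 was lowest in irradiated LBP replicate 1 (88.7 CPM). MDM2 was lowest in LBP replicate 2 (35.2 CPM) and KPNA2 in LBP replicate 1 (431.5 CPM).

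The effect of 12 Gy differed between pretreatments for PDE8B (adjusted p = 0.00441) and AC008982.1 (adjusted p = 0.00611) in edgeR's interaction test, both with 0 counts in whole groups.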

How the results depend on the processing

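Limits: 2 libraries per non-irradiated group and a common coefficient of variation of 11.8% bound what could be called. Calls of the main effect (83: 11 higher, 72 lower) became 192 (74 and 118) with DESeq2, 10 (2 and 8) with the LBP libraries only and 7 with a 2-fold minimum. Higher calls became 3 without the pretreatment covariate and 27 with the vehicle libraries only. With the replicate block, 62 genes were called, 2 higher and 60 lower, and 51 of the G2 and mitosis members. The numbers were not taken to pair the libraries. Of 13 same-numbered pairs 2 had deviations from their group means correlated over 0.1 (-0.161 to 0.11), as did 2 of 24 other pairs. In groups of 2 libraries these deviations mirror each other, so this comparison cannot show whether the numbers pair the libraries. Leaving out 1 library gave 55 to 132 calls, 3 to 54 higher and 50 to 78 lower. G2 and mitosis members called lower (60) became 6 with the LBP libraries only. Other list members called (1) became 17 with DESeq2, 3 without a filter, 0 without the covariate, 0 with the replicate block, 3 with either FPKM fit, 2 with the gene-length trend removed, 7 with the vehicle and 0 with the LBP libraries only, and 0 to 16 with 1 library left out. Interaction calls (2) became 16 with DESeq2, 7 without a filter, 1 at a minimum count of 50, 1 with the replicate block and 0 to 5 with 1 library left out. Calls with vehicle (65) became 109 with those 2 groups only, 129 with DESeq2 and 25 to 35 with 1 library left out, and with LBP (21) they became 10, 184 and 8 to 51. AC008982.1 had a log2 fold change of 7.93 with the vehicle libraries only against -0.02 in the main effect, which averages opposite changes with vehicle (7.82) and LBP (-7.42); each is fitted against libraries at 0 and depends on the prior count. Totals under other scalings were 76 to 82, and limma-voom on the counts, chosen after seeing the data, gave 81. The cause of these differences was not tested. Log2 fold change and gene length had a rank correlation across 13976 genes of 0.144 in the main effect, -0.133 with vehicle and 0.288 with LBP; with the trend removed 96 genes were called, 63 of them G2 and mitosis members.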

Other observations

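Heat shock and chaperonin genes mostly had negative log2 fold changes. For the list counts in this section, 5.51% of all tested genes were higher and 4.95% lower at an unadjusted p under 0.05 in edgeR. Of 23 tested, 20 had a negative log2 fold change, none was called by edgeR and 4 were lower in DESeq2, 15 were lower at an unadjusted p under 0.05 and none higher, and the median was -0.16. HSPA8, the constitutive HSC70 chaperone, had 4118, 4060, 3472 and 4344 CPM without and 3630, 3459, 3428, 3082, 3132 and 2183 CPM with radiation, overlapping groups in which irradiated LBP replicate 3 was lowest (-0.35 ± 0.10, adjusted p = 0.248 in edgeR and 0.0258 in DESeq2). HSPH1, a nucleotide exchange factor of HSP70, had non-overlapping groups of 413 to 452 CPM and 318 to 408 CPM (-0.20 ± 0.05, adjusted p = 0.189 in edgeR and 0.0298 in DESeq2). Interferon-stimulated genes had no call in edgeR and 1 lower in DESeq2 among 38, 5 lower and none higher at an unadjusted p under 0.05, and a median of -0.14. DDX58, the RNA sensor RIG-I, had 48.1 to 59.04 CPM without and 40.6 to 48.6 CPM with radiation (-0.30 ± 0.07, adjusted p = 0.133 in edgeR and 0.0118 in DESeq2).

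List medians differed between the pretreatments in several lists, and no such difference was tested. The NF-kB and cytokine list had 0.24 with vehicle and 0.50 with LBP. The heat shock list had -0.11 and -0.24, and the replication-dependent histones -0.40 and -0.22. Values for 2 further lists follow. The 33 cytosolic ribosomal protein genes were all below 0 in the main effect (median -0.12, none called by edgeR or DESeq2, 6 lower at an unadjusted p under 0.05), with medians of -0.004 with vehicle and -0.23 with LBP. The 13 mitochondrially encoded genes had medians of 0.13 in the main effect, -0.09 with vehicle and 0.38 with LBP, with none called by edgeR or DESeq2 and none at an unadjusted p under 0.05. The rank correlation of log2 fold change with gene length also had opposite signs in the pretreatments (-0.133 with vehicle, 0.288 with LBP), and its part in these medians was not tested.

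In 6 further lists edgeR called no member, and DESeq2 called 1, in the integrated stress response. At an unadjusted p under 0.05 there were 1 lower NRF2 gene, 4 higher integrated stress response genes, 2 higher and 4 lower hypoxia and glycolysis genes and 3 higher cholesterol synthesis genes, and none in the lists for unfolded proteins and the cornified envelope. The medians were -0.04 over 28 NRF2 antioxidant genes, 0.04 over 29 integrated stress response genes, 0.08 over 20 genes for unfolded proteins of the endoplasmic reticulum, 0.01 over 22 cornified envelope genes, 0.05 over 29 hypoxia and glycolysis genes and 0.06 over 20 cholesterol synthesis genes. CHAC1, a glutathione-degrading enzyme and the member that DESeq2 called (adjusted p = 0.00216), had 18.6 and 15.96 CPM with vehicle, 25.4, 21.99 and 20.7 CPM after irradiation, 25.01 and 24.8 CPM with LBP and 40.2, 29.8 and 54.2 CPM after both (0.57 ± 0.14, adjusted p = 0.152 in edgeR), above the non-irradiated libraries of the same pretreatment in 6 of 6 libraries. HMOX1, the haem oxygenase of the NRF2 list, had 3.55 and 4.84 CPM with vehicle, 4.28, 4.17 and 6.16 CPM after irradiation, 103 and 127 CPM with LBP and 113, 74.95 and 88.8 CPM after both, so its level followed the pretreatment, and the 12 Gy effect was -0.11 ± 0.15 (adjusted p = 0.82, edgeR).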
